A study of Nitraria sibirica with 9 samples.

Results

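Clusters that were present without added salt and lost at moderate salt were examined in Nitraria sibirica, a salt-tolerant shrub, with leaf RNA as the material. A cluster is a set of assembled transcripts that the authors counted as 1 unit, since the transcriptome was assembled without a genome. The members were selected on the counts at 0 and 100 mM NaCl. They are the clusters with an estimated count of at least 10 in each library at 0 mM NaCl and a summed count of at most 3 over the libraries at 100 mM. They were also absent from the deposited table of the whole series, which holds the clusters with an FPKM (fragments per unit of cluster length and of library size) over 0.3 in all 9 libraries. The rule gave 193 members of 126059 clusters in all. It gave them out of 9393 clusters outside that table that held 10 counts in each 0 mM library, a share of 2.05%. Members were then split by the 400 mM libraries. They were off where the summed count was at most 3, back where each library held at least 10, and other in between.

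The study compared leaf transcripts between unsalted plants and those at moderate or high salt. Greenhouse seedlings stood for 3 days at 0, 100 or 400 mM NaCl, and leaf RNA of each level was sequenced in 3 libraries. Per the labels, salt was raised in daily steps and all levels were reached together, so plants at 400 mM had been in salt for longer and level and time in salt cannot be told apart. All plants shared the species, the greenhouse and the tissue, and no genotype or line is named. The labels do not say whether replicates came from separate plants, so p-values cover the spread between libraries alone, and that spread may be technical.

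Halophytes such as Nitraria grow at salt levels that stop most crops. They are known to hold down sodium in the cytosol by moving it into vacuoles or out of the cell and to build up compatible solutes that balance the osmotic pull of the salt. In an assembly made without a genome, the alleles and splice forms of 1 gene and the copies of a gene family can form clusters of their own, so the loss of a cluster need not be the loss of a gene's transcripts. The files pair no cluster with a gene name, a protein or a sequence. Members are therefore described by level, course, length and name, and the leaf label could not be checked against marker genes.

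Library totals ran from 16502728 to 19094526 counts at 0 mM, from 18070060 to 22494490 at 100 mM and from 21815009 to 23933039 at 400 mM. The salt libraries were thus mostly deeper than the 0 mM libraries in which members had to be present. Replicate 1 of 100 mM stood apart for this rule. Without it 915 clusters met the rule in place of 193, against 395 without 100 mM replicate 2 and 389 without replicate 3. Results that rest on 100 mM libraries are given below with this in view, and the cause was not tested.

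Near the limits of the rule, 27 members had a lowest 0 mM count between 10 and 11, with a median 0 mM total of 49.7. Another 36 clusters were just outside, with a lowest count from 9 to under 10 and a median total of 46.6. At the other limit, 35 members had a 100 mM sum above 2, and 55 clusters just outside had a sum above 3 and up to 4. The median 0 mM totals of these groups were 68.7 and 57.8 counts.

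At 0 mM the members were mostly scarce transcripts. Their summed count over the 3 libraries ran from 32.0 to 1848, with a median of 74.6 and quartiles of 52.7 and 131. Together they held 567, 499 and 530.3 CPM (counts scaled to library size) in 0 mM replicates 1, 2 and 3, a mean of 532 CPM ± 34.2 (SD, n = 3). The 0 mM libraries also differed among themselves, as the highest count of a member was a median of 2.00 times its lowest. This ratio was 2.11 in the 9200 other clusters outside the series table with 10 counts in each 0 mM library. In 41 members the ratio was 3 or more and in 2 members it was 10 or more. On the CPM scale, 88 members were highest in replicate 1, 51 in replicate 2 and 54 in replicate 3. Replicate 1 was the shallowest 0 mM library, so the required 10 counts were a higher CPM there. Whether this bears on the 88 was not tested, and the comparison clusters were not counted in this way. The 9200 other clusters summed to 34726, 30290.5 and 34526 CPM in replicates 1, 2 and 3.

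At 100 mM the same 193 clusters held 3.39, 1.47 and 2.35 CPM in replicates 1, 2 and 3, which follows from the rule. No 100 mM library held a count for 124 of these members. Counts appeared for 38 members in replicate 1, for 18 in replicate 2 and for 26 in replicate 3. For the 124 members without a count, the level at 100 mM was at least 13.5-fold to at least 681-fold lower than at 0 mM, with a median bound of 32.0. Here and below, such bounds set a floor of 3 counts over a salt group (0.0497 CPM at 100 mM) against the 0 mM counts pooled over libraries, not against the mean CPM, and cover counting error only. In bulk leaf RNA, fewer cells of a type and less RNA per cell cannot be told apart.

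**Figure D1:**
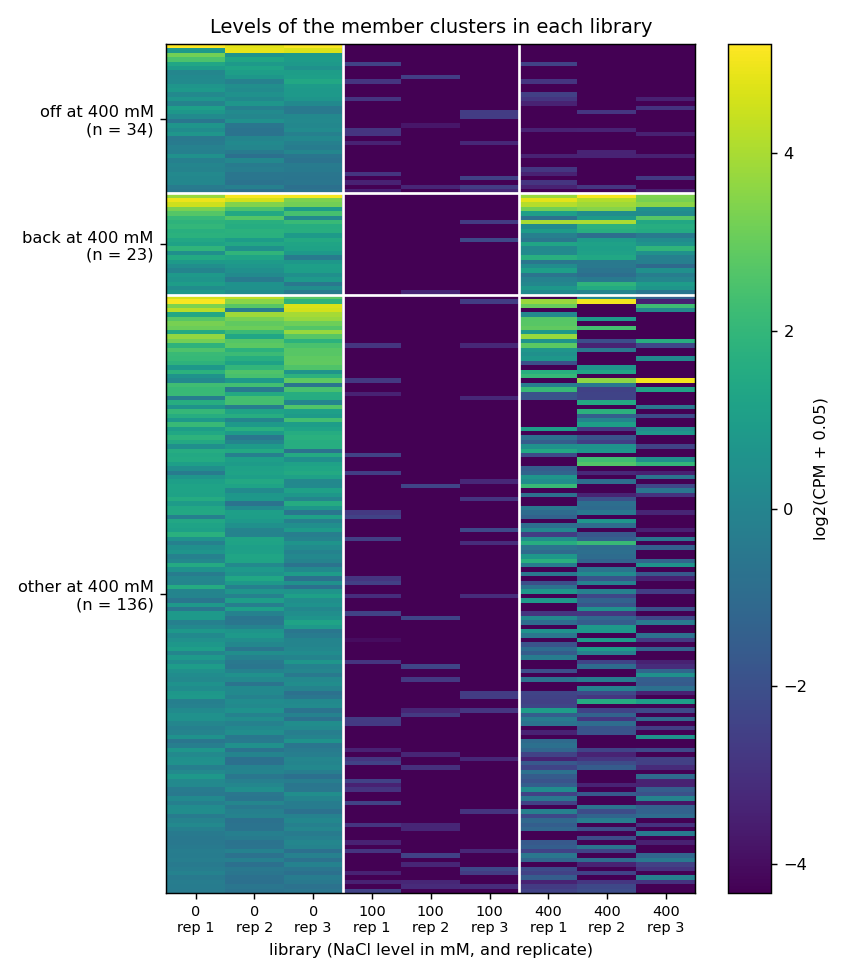
Level of each of the 193 members (rows, by class at 400 mM and then by 0 mM total) in each of the 9 libraries (columns), as log2(CPM + 0.05) in colour. The 100 mM columns are dark by the rule, while the 400 mM columns are dark for the 34 off members, bright for the 23 back members and mixed for the 136 others.

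All 193 members passed the filter on low counts, which they did through the 0 mM libraries where they were chosen to be high. In edgeR's quasi-likelihood test 17 of them (8.81%) were called lower at 100 mM at an adjusted p under 0.05, beside 0.0757% of all 56832 clusters tested. As the rule used this contrast, nothing is read from that count. DESeq2 called 145 members, beside 3.09% of all clusters. The 17 called members all had 0 counts at 100 mM and a median 0 mM total of 131, against 71.3 for the 176 not called. By class, 15 of the 23 back members were called, 1 of the 34 off members and 1 of the 136 others. As the 400 mM counts set the classes and entered the same fit, nothing is read from this division either. No member kept its call without any 1 of the 0 mM or 100 mM libraries or without 400 mM replicate 2, while 9 members (of 34 clusters called lower among 62687) were called without 400 mM replicate 3 and 24 (of 75 among 62330) without 400 mM replicate 1.

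At 400 mM, which played no part in the choice of the 193, 34 members (17.6%) were off, 23 (11.9%) were back and 136 (70.5%) lay in between. The members held 249.7, 247 and 143 CPM in 400 mM replicates 1, 2 and 3, a mean of 213 CPM ± 60.9 (SD, n = 3). Each 400 mM library thus held less of the members than any 0 mM library and more than any 100 mM library. The members were chosen as high at 0 mM and low at 100 mM, so a level in between can come from that choice. Nothing is read from this order. The 9200 other clusters outside the series table with 10 counts in each 0 mM library had a higher median 0 mM total, at 102 counts. Absence from that table requires an FPKM of at most 0.3 in some library, so a lower level at salt is partly built into their choice. They went from 33181 CPM ± 2505 without salt to 20064 CPM ± 2804 at moderate and 21088 CPM ± 1219 at high salt (SD, n = 3 each).

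The 34 off members had the lowest median 0 mM total of the classes, although the most abundant member was among them. This median was 57.6 counts, beside 131 for the back members and 72.7 for the others. Their summed level was 90.1, 92.8 and 99.3 CPM in the 0 mM libraries, and at most 0.711 CPM in any 100 mM library and 0.844 CPM in any 400 mM library. In 12 of the 34, no count was present in any of the 6 salt libraries. The other 22 had between them a few counts, as 400 mM replicate 1 held 19.1 counts over all 34 members, replicate 2 held 7 and replicate 3 held 8.50.

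Cluster-23439.61384, the most abundant member, was off at both salt levels. Its estimated counts were 619.79, 542.56 and 685.80 in 0 mM replicates 1, 2 and 3 and 0 in all 6 salt libraries. The 0 mM libraries lay close together and did not overlap the salt libraries. Its level was 34.0 CPM ± 4.92 at 0 mM (SD, n = 3). By pooled counts it was at least 681-fold lower at 100 mM, a contrast that chose the member and is given without a test. By the same measure 400 mM was at least 771-fold below 0 mM, which did not pass edgeR's test (adjusted p = 0.0942). The member was named from the off class, which the 400 mM counts defined. Its low level at 400 mM is thus part of the choice, and nothing is read from the tests of that contrast. The count and FPKM place its length at 2183 bases. At 400 mM against 0 mM it was called by DESeq2 (adjusted p = 2.16e-18). It was also called by edgeR with the newer adjusted deviances (adjusted p = 0.0436), without 400 mM replicate 1 (edgeR adjusted p = 0.0445) and without replicate 1 of both salt levels (edgeR adjusted p = 0.0205). It was not called with other scaling in edgeR, without the filter, with the replicate block or from the 6 libraries compared. The same held when any other single library was left out. In these fits the edgeR adjusted p ran from 0.0518 to 0.24.

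Cluster-23439.45070 was next in abundance among the off members, and its 0 mM libraries did not lie together. It had 28.76, 559.57 and 495.03 counts in 0 mM replicates 1, 2 and 3 and 0 in all 6 salt libraries. Replicate 1 was far below the other two, and its mean of 19.0 CPM had an SD of 15.1 (n = 3). By pooled counts, 100 mM was lower by a factor of at least 399, again the contrast of the choice. The bound for 400 mM was 452-fold, where edgeR's test did not pass (adjusted p = 0.194) and DESeq2's did (adjusted p = 9.59e-07). That contrast also belongs to the choice, through the off class, so nothing is read from either test. With an estimated length of 8871 bases it was the longest member.

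The 23 back members had the highest median 0 mM total of the classes. As a sum they came back near their 0 mM level, while single members differed widely. Their summed level was 126, 121 and 95.5 CPM in 0 mM replicates 1 to 3 and 109, 126 and 67.2 CPM in 400 mM replicates 1 to 3, so that both groups overlapped. For 20 of the 23, all 100 mM libraries were at 0. The ratio of the mean CPM at 400 mM to that at 0 mM ran from 0.242 to 3.15 with a median of 0.780, and it was above 1 in 6 members and below 1 in 17. In 15 members the 400 mM libraries overlapped the 0 mM libraries, in 7 all of them lay below and in 1 all lay above. All 400 mM libraries lay below in 16.2% of all clusters tested. The share of all clusters that lay above was not counted. The back members were required to hold 10 counts in each 400 mM library, which favours abundant clusters. Their return is thus part of the definition and not a finding.

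Cluster-23439.48309 had 221.35, 679.22 and 648.92 counts in 0 mM replicates 1 to 3, none in the 3 libraries at 100 mM, and 305.85, 757.80 and 248.31 in 400 mM replicates 1 to 3. Replicate 1 was low at 0 mM, and replicates 1 and 3 were low at 400 mM, so that both levels overlapped. The mean was 27.7 CPM ± 12.4 without salt, compared with 19.5 CPM ± 13.2 for 400 mM (SD, n = 3 each). At 100 mM it was at least 571-fold below 0 mM. At 400 mM against 0 mM the edgeR adjusted p was 0.873. For 400 mM against 100 mM the edgeR adjusted p was 0.269, which did not pass the test, while DESeq2 called the rise (adjusted p = 3.10e-12). The 100 mM libraries of the latter contrast chose the member.

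Cluster-23439.42528 had 504.75, 464.97 and 199.98 counts in 0 mM replicates 1 to 3, none at 100 mM, and 652.42, 379.80 and 231.84 in 400 mM replicates 1 to 3. The counts were lowest in replicate 3 at both levels, and the levels overlapped. The mean was 21.8 CPM ± 10.3 without salt, compared with 18.7 CPM ± 9.65 for 400 mM (SD, n = 3 each). At 100 mM it was at least 431-fold below 0 mM. With 400 mM against 0 mM, the edgeR adjusted p was 0.984 at a log2 fold change of -0.05, whose sign turned in 5 alternatives. At 400 mM against 100 mM edgeR's test did not pass (adjusted p = 0.19) and DESeq2's did (adjusted p = 1.07e-12). As this member was chosen in the same way, nothing is read from either contrast. The estimated lengths of both clusters were close, at 2681 and 2661 bases.

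**Figure D2:**
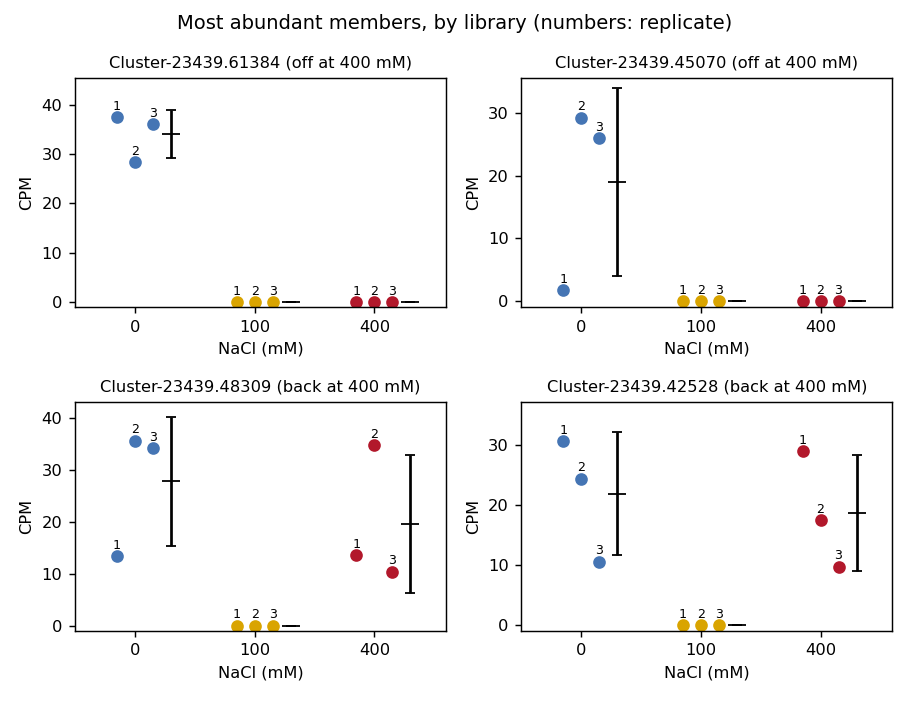
CPM (y axis) in each library by NaCl level (x axis, mM) for the off members and the back members with the highest 0 mM totals, with a panel for each. Points are libraries numbered by replicate, and bars to their right are the mean and SD (n = 3). All points at 100 mM are at 0, and for Cluster-23439.45070 the 0 mM replicate 1 lies at 1.74 CPM beside 29.3 and 26.1 CPM.

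The 136 other members were split between the 400 mM libraries. In 46 of them no 400 mM library reached 10 counts, and the summed 400 mM count ran from 3.33 to 16 with a median of 6.42. Exactly 1 library reached 10 counts in 52 members, namely replicate 1 in 24, replicate 2 in 18 and replicate 3 in 10. In the other 38, replicates 1 and 2 reached it in 20, replicates 1 and 3 in 12 and replicates 2 and 3 in 6. In 67 of the 136, a library with 10 counts or more stood beside one with 0. Libraries of 1 salt level thus differed within single members.

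Over all 193 members, 10 counts or more were found for 79 (40.9%) in 400 mM replicate 1, for 67 (34.7%) in replicate 2 and for 51 (26.4%) in replicate 3. No count was found for 57, 72 and 91 members in the same order. Replicate 3 is the deepest of the 9 libraries, with 23933039 counts, and held the fewest members. Without replicate 1 the number of members off at 400 mM went from 34 to 68, without replicate 2 to 63 and without replicate 3 to 47. The number back at 400 mM went from 23 to 29, 35 and 43 in the same order.

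**Figure D3:**
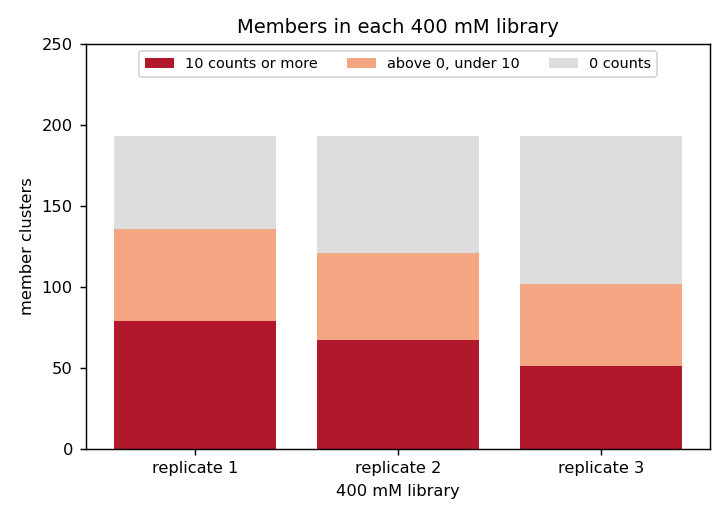
Number of the 193 members (y axis) with 10 counts or more, with a count above 0 and under 10, and with 0 counts in each 400 mM library (x axis). The part with 10 counts or more is 79, 67 and 51 members in replicates 1, 2 and 3.

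At 400 mM against 0 mM, 0 members passed edgeR's quasi-likelihood test at an adjusted p under 0.05, as did 0 of all clusters tested (0%). At an unadjusted p under 0.05 edgeR gave 69 members lower (35.8%), beside 4.90% of all clusters. These were all 34 off members, 2 back members and 33 others. The off and back classes were split by the same 400 mM counts, so nothing is read from this division by class. DESeq2 called 32 members lower, beside 1.84% of all clusters tested. The members share their 0 mM libraries between the rule and this comparison, so a share above that of all clusters can come from the choice. Over the members the median log2 fold change was -2.16, with 178 fitted lower and 15 higher, beside a median of -0.02 over all clusters tested. In 122 members (63.2%) every 400 mM library lay below every 0 mM library, beside 16.2% of all clusters tested and 33.5% of the 9200 comparison clusters, which were not matched for level. All 34 off members were among the 122, which follows from how that class was defined.

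At 400 mM against 100 mM no member passed edgeR's test either, as did 0% of all clusters. At an unadjusted p under 0.05 edgeR gave 92 members higher at 400 mM, beside 3.63% of all clusters, and DESeq2 called 48, beside 0.783%. They were all 23 back members and 69 others at the unadjusted p. The 100 mM libraries were used to choose the members, so nothing is read from these counts.

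The same rule was applied to the other ordered pairs of levels. On at 0 mM and off at 400 mM gave 125 clusters (1.33% of those on), and 34 of them were also off at 100 mM. These 34 are 17.6% of the 193 and 27.2% of the 125, and both lists share the 0 mM libraries. The reverse of the members' pattern, on at 100 mM and off at 0 mM, gave 163 clusters (2.59%), and on at 400 mM and off at 0 mM gave 143 (1.66%). Between the salt levels, 124 clusters (1.44%) were on at 400 mM and off at 100 mM, and 67 (1.07%) were on at 100 mM and off at 400 mM.

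Set out by pattern, 34 clusters were on at 0 mM alone, 18 at 100 mM alone and 13 at 400 mM alone. Conversely, 43 were off at 0 mM alone, 23 at 100 mM alone and 5 at 400 mM alone. Clusters that appeared in both salt levels but not at 0 mM were thus more numerous in these libraries than those shared by 0 and 400 mM and lost at 100 mM. The limits are on counts, and the 0 mM libraries were mostly the shallower, so off at 0 mM was easier to meet. The 23 also went to 116, 72 and 76 without 100 mM replicate 1, 2 and 3, and the 43 was not recounted in that way. No test was made of this difference.

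Sets of 3 libraries that mixed the levels also met the rule. There are 216 ways to ask for 10 counts in a set with 1 library of each level and at most 3 counts over another such set. They gave between 39 and 128 clusters with a median of 72.0, and the highest count came with the mix of 0 mM replicate 3, 100 mM replicate 1 and 400 mM replicate 1 on and 0 mM replicate 1, 100 mM replicate 2 and 400 mM replicate 2 off. The 193 members, the 163 and the 143 lay above this range, and the other 3 pairs of levels lay within it. The mixed sets share libraries with each other, so the range is a description and no p is given.

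**Figure D4:**
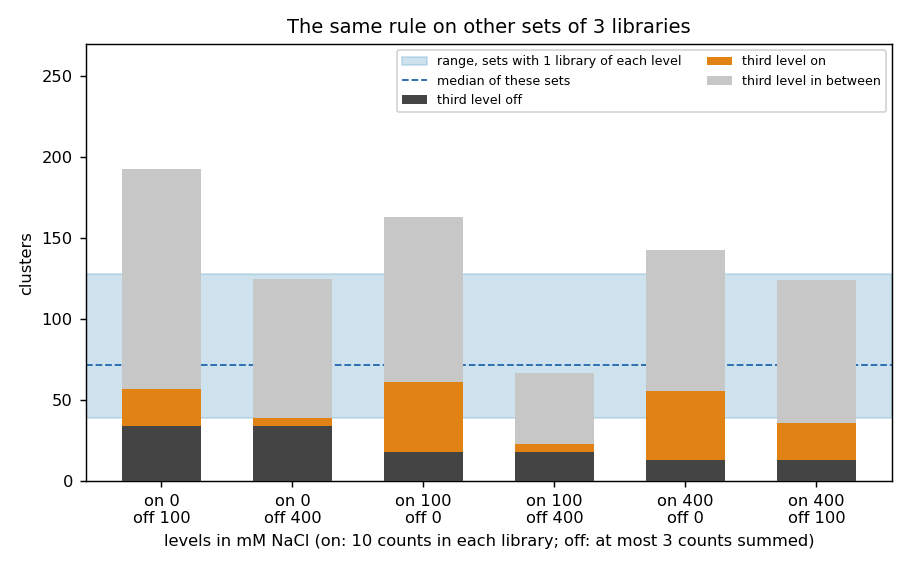
Number of clusters that met the rule (y axis) for each ordered pair of NaCl levels (x axis), split by whether the remaining level was off, on or in between. The shaded band from 39 to 128 and its dashed median of 72.0 are the 216 sets with 1 library of each level, and the bar of the 193 members (on 0, off 100) is the highest.

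The count of 193 depended on which 100 mM libraries were present. A further 722 clusters were on in each 0 mM library and off in 100 mM replicates 2 and 3, and were kept out by replicate 1 alone. Replicate 1 held a median of 13.0 counts of them and at least 10 counts of 446. For replicate 2 alone the number was 202 and for replicate 3 alone it was 196. At 400 mM, 10 counts or more of the 722 were found for 399 (55.3%) in replicate 1, 234 (32.4%) in replicate 2 and 210 (29.1%) in replicate 3. The 202 clusters kept out by 100 mM replicate 2 showed no such lean, with 53.5%, 55.9% and 50.5% in 400 mM replicates 1 to 3, nor did the 196, with 53.6%, 53.6% and 49.0%. These groups were formed after the values were seen and were not tested.

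The members' length was estimated from count and FPKM, and the rule set no limit on it. Absence from the series table does depend on length, since FPKM divides by it. At equal counts a long cluster is more readily left out of that table. Longer comparison clusters are thus partly built into their choice. The length could be computed for 192 members and ran from 303 to 8871 bases, with a median of 1808 and quartiles of 1161 and 2600. The 9200 comparison clusters had a median of 2092 bases, and their quartiles of 1414 and 2966 overlapped widely with those of the members. Back members were the longest class with a median of 2661 bases, against 1533 for off members and 1782 for others. The 46 others without 10 counts in any 400 mM library had a median of 1294 bases.

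Part of the difference in length went with abundance, as scarce clusters were shorter. With 30 to under 60 counts at 0 mM, 69 members had a median of 1306 bases and 1703 comparison clusters 1546. With 60 to under 120 counts the medians were 1989 (73 members) and 2088 (3714 clusters), and from 120 counts upward 2167 (51 members) and 2462 (3708 clusters). The choice by FPKM acts within each range too, so nothing is read from the shorter members. The quartiles overlapped in each range, and clusters are not replicates, so no test was made.

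**Figure D5:**
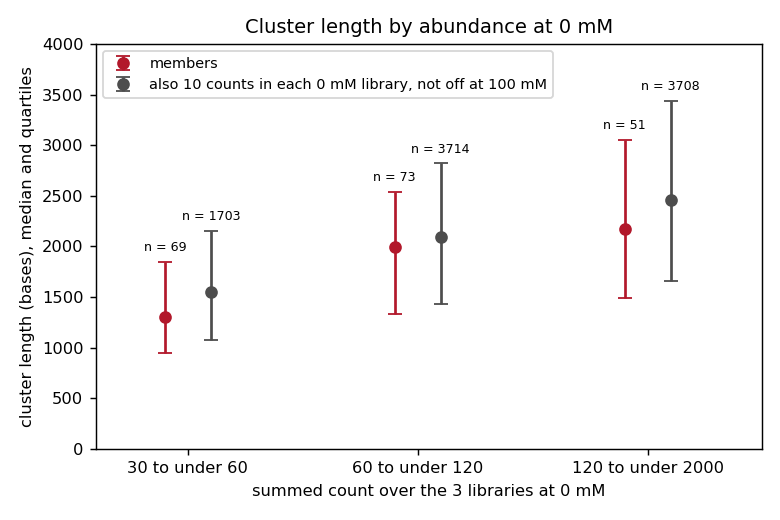
Estimated cluster length in bases (y axis; points are medians and bars reach the quartiles) by summed 0 mM count (x axis) for the members and for the comparison clusters, which also held 10 counts in each 0 mM library and were not off at 100 mM. Members lie lower in each range, at 1306, 1989 and 2167 bases against 1546, 2088 and 2462, with overlapping bars. Absence from the series table favours long comparison clusters, so this order is partly built in.

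Most members carried the number 23439 before the point of their name, as did 78.2% of all clusters. What that number stands for is not given in the sources used here. Outside it were 27 members (14.0%), beside 3.22% of the comparison clusters. All 27 were among members with fewer than 120 counts at 0 mM, at 27.5% below 60 counts (9.34% of the comparison clusters) and 10.96% from 60 to under 120 (3.39%). By class they were 8 off members (23.5%), 0 back members and 19 others (14.0%), and 16 of those 19 had no 400 mM library at 10 counts.

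Counts that were not whole in all 3 of the 0 mM libraries were held by 139 members (72.0%), beside 82.2% of the comparison clusters. By abundance the shares were 47.8% and 69.3% below 60 counts, 79.5% and 81.1% from 60 to under 120, and 94.1% and 89.1% from 120 upward, where the order turned. In estimated counts, a value that is not whole usually means that reads were divided among sequences they matched equally well. All 23 back members had such counts in all 3 libraries, but 16 of the 34 off members (47.1%) did, and another 16 off members had whole counts throughout. Levels of clusters with divided reads are uncertain where near-identical alleles, copies or splice forms lie in other clusters.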

How the data were processed

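Leaf RNA was sequenced in 9 libraries, 3 each at 0, 100 and 400 mM NaCl. The deposited read counts are estimated counts per cluster, as 38.5% to 42.5% of the values in a library are not whole, and the FPKM values were made by the authors, per the file headers. Per the submitters' processing notes the tools included TopHat2 2.0.9 and Bowtie2 2.0.6, whose roles are unstated. Which assembler, counting tool and strand setting were used is not given in the sources used here. In the table of the whole series are 31628 clusters, namely all whose FPKM exceeded 0.3 in every library, so none of them met the rule. No pair of libraries held identical counts.

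The members and the comparisons were chosen with earlier results of these data known. The rule used the counts as deposited, and its limit of 300 members was not reached. CPM are counts scaled to the library total. Length is the length implied by count and FPKM plus the median offset to the deposited lengths, 241 to 251 bases by library. For the clusters of the series table it differed from the deposited length by a median of 0.0212%, and it was computed where the FPKM was at least 0.3. Clusters were named by a rule, the 2 highest 0 mM totals among off members and among back members.

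Tests were made with edgeR 4.0.16 in R 4.3.3 (quasi-likelihood, TMM, filterByExpr, rounded counts, Benjamini-Hochberg over the 56832 clusters tested), with all 9 libraries in 1 fit of 3 groups and a threshold of 0.05. The common biological coefficient of variation was 0.758. DESeq2 1.42.0 was an alternative. The edgeR fit was tested on simulated data. Other alternatives were the limits of the rule, scaling, filter, replicate block, the libraries fitted and leaving out each library.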

Additional observations from a re-analysis of the deposited data

How the results depend on the processing

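The rule's counts moved with its limits. With a minimum of 5 counts, 702 clusters were kept, 174 off and 72 back at 400 mM, and with a minimum of 20 they were 63, 9 and 12. With no count allowed at 100 mM 124 were kept, 12 of them off at 400 mM (no count allowed there either), and with up to 10 counts 631, of which 182 were off and 58 back. Scaled to the shallowest library, 179 were kept and 157 of these were members. Leaving out 1 library gave 193 to 915 kept, 44 to 108 off and 29 to 116 back. The fit without replicate 1 of both salt levels and edgeR's newer adjusted deviances were chosen after seeing the data. Without those replicates 915 were kept, 183 off and 149 back.

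Members called lower at 100 mM numbered 17, and 145 with DESeq2 (of 1755 clusters called lower). With the newer adjusted deviances they numbered 38 (of 295 clusters called lower), and without 1 library 0 to 24. Members called lower at 400 mM numbered 0, and 32 with DESeq2 (of 1044 clusters called lower) and 1 with the newer adjusted deviances (of 14). They numbered 2 without replicate 1 of both salt levels (of 49) and 0 to 1 without 1 library. The 1 came without 400 mM replicate 1, where 11 clusters were called lower. Members called higher at 400 than 100 mM numbered 0, 48 with DESeq2 (of 445 clusters called higher) and 0 to 0 without 1 library. In the fit of only those 6 libraries 22 members passed the filter. For Cluster-23439.42528 at 400 mM against 0 mM the log2 fold change of -0.05 turned to 0.018 without the filter, and ran from -0.46 to 0.26 without 1 library, above 0 without 0 mM replicate 1 or 2 or 400 mM replicate 2 or 3. The causes were not tested.

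Same-numbered libraries of different levels deviated together at r from -0.01 to 0.17 over 9 pairs, with 1 over 0.1, so the numbers were not taken to pair the samples. The pair over 0.1 was replicate 1 of 100 mM and of 400 mM, and pairs with different numbers ran from -0.11 to 0.06. In 13 of 18 cases a library correlated best with its own number, so a weak pairing may still be present. With the replicate block, 6 members were called lower at 100 mM, of 52 clusters called lower, where the fit without it gave 17 of 43.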

Other observations

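Loss of a cluster from a single library was also found within each salt level. All clusters with 10 counts in both other libraries were not counted, so no share is given. Among clusters outside the series table, those with 10 counts or more in both other libraries of a level and 0 in the remaining one numbered 1723, 1325 and 1481 for 0 mM replicates 1, 2 and 3. For 100 mM replicates 1, 2 and 3 they were 1182, 1310 and 1680, and for 400 mM 1604, 1436 and 1395.

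Of the 27 members outside the number 23439, 20 were the only cluster under their number and 7 shared it with others, 11 in all. None of these 11 was a member. At 0 mM 6 of them held more than 3 counts over the 3 libraries, and at 100 mM 4 did, with 3.24, 17, 18 and 4 counts. The clusters at 17 and 18 counts share their number with 1 member, which had 57 counts at 0 mM and 2 at 100 mM, and 15 counts of each came from 100 mM replicate 1.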
